A study of Drosophila melanogaster with 136 samples.

Results

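The synaptic release machinery was described here as 10 fruit fly genes: brp, unc-13, Rab3, Syn, nSyb, Snap25, Syx1A, Rop, cpx and Csp. For each symbol, members were the probe sets annotated to it; the symbols were listed with earlier results of these data known. Of the 10 genes, 9 had a probe set and together they had 13, out of 11982 genes with a named probe set on the array; Syx1A, the plasma membrane syntaxin, was not analysed here. The gene brp had 4 probe sets, cpx had 2 and the other members had 1 each. Each gene is represented below by its brightest probe set over all arrays, and further probe sets are named where they are used.

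The atlas holds 4 Affymetrix arrays, of the fly genome design 2, for each of 34 groups of organs, intact animals or cultured S2 cells. All animals were wild-type Canton-S, adults were 7 days old and larvae were in the third instar. The larval groups compared here (CNS, salivary gland and whole larva) are titled as feeding larvae, while the atlas also holds tissues of wandering larvae. Each array of brain, adult salivary gland, thoracoabdominal ganglion or eye held tissue pooled from 60, 60, 100 or 30 flies of each sex, and each whole-fly array held 12 of each sex. The accessory gland label also gives 25 flies of each sex, although the gland is male. Ejaculatory duct came from 60 males and virgin spermatheca from 60 females, and the larval arrays held 100 animals for central nervous system (CNS) or salivary gland and 30 for the whole larva. RNA had 1 round of amplification in these groups except virgin spermatheca, which had 2, and eye, which was labelled with another kit; amplification or kit and tissue cannot be told apart there. Titles name the replicates as biological in 7 of the 11 groups compared and give only a number in 4. No label says which animals went into which array, so a p-value here covers only how much these 4 arrays vary, which may be technical.

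Calcium-triggered release at a nerve terminal depends on a vesicle SNARE, nSyb, that zips together with the plasma membrane SNAREs Snap25 and Syx1A. Rop, the fly Sec1/Munc18 protein, and unc-13, the Munc13 protein, prepare the SNAREs for fusion; cpx, complexin, binds the assembled bundle and holds back spontaneous fusion at the fly neuromuscular junction. Rab3 is a GTPase on synaptic vesicles, Syn (synapsin) holds vesicles in a reserve, brp (Bruchpilot) builds the dense projection of the active zone, and Csp is a DnaJ-type chaperone that keeps release competent. Gland cells also secrete through SNARE-driven fusion, which is why the secretory tissues of the atlas were set beside the nervous ones.

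Values are signals on a linear scale after each array was brought to 1 trimmed mean of 100.004, and signals of different probe sets are not compared as levels. Folds are differences of log2(signal + 10), given with the SE, which compresses the change of a gene near 10. A probe set was called higher or lower at a limma adjusted p below 0.05 with at least a 2-fold change. Within the 11 groups compared and the mated spermatheca, arrays of a group correlated at 0.957 to 0.995; adult trachea and thoracic muscle, which are also described, had 0.930 to 0.976 and 0.770 to 0.942. The summed signal of 11 neuron markers was 9577 to 10935 in brain, 10135 to 10739 in ganglion, 5462 to 5954 in larval CNS and 3054 to 4420 in eye, against 651 to 843 in whole fly and 385 to 559 in whole larva. In the adult salivary gland, accessory gland, duct, virgin spermatheca and larval salivary gland it ran from 73.6 to 309. Among defining markers of the spermatheca, dimm lay below 10 in the virgin spermatheca, whose 4 markers summed to 6867 to 8582. The median signal of an array was 28 to 28.8 in whole fly and 8.97 to 20.4 in the dissected tissues set against it. Quantile normalization moved the median log2 fold of all probe sets in brain against whole fly from -0.11 to 0.13, and in virgin spermatheca against whole fly from -0.34 to 0.21. The share of calls that were higher went from 38.7% to 50.1% in the first and from 25.3% to 52.6% in the second.

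**Figure D1:**
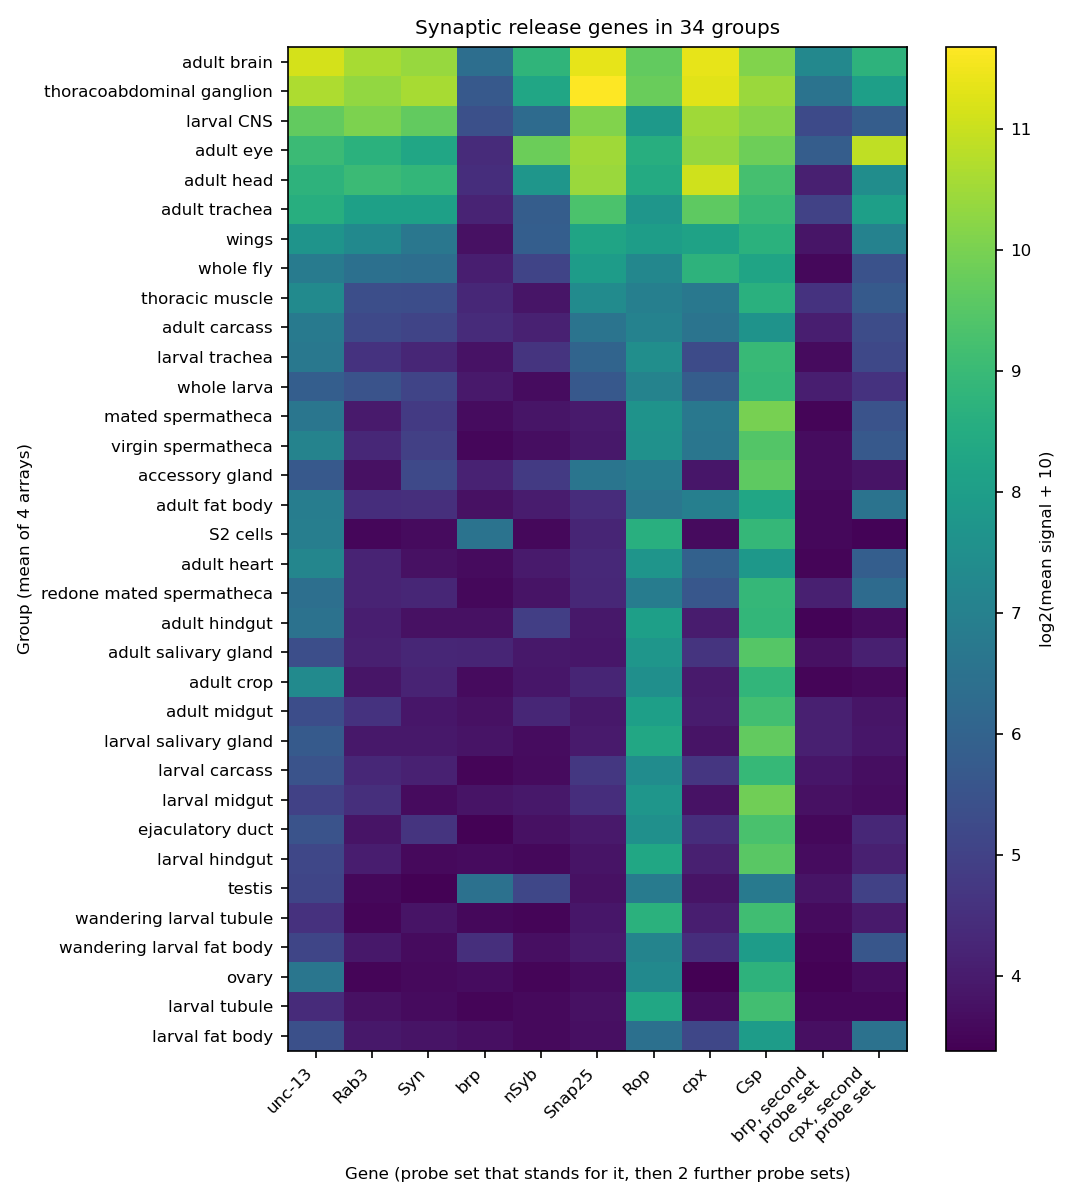
Mean signal of 4 arrays as log2(mean signal + 10), for the probe set that stands for each of 9 release genes and for the second probe set of brp and cpx, in all 34 groups ordered by the mean over the 9 genes. Colours are to be read down a column; the 4 top groups are brain, ganglion, larval CNS and eye, whereas Rop and Csp keep signal down the whole column.

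In the adult brain all 9 measured members were higher than in the whole fly, where 19.3% of all probe sets tested were called higher and 30.6% lower. Their median log2 fold was 3.43, against -0.11 over all probe sets, and every brain array was above every whole-fly array for all 9, as for 33.9% of all probe sets. Folds are given below by step of release. The whole fly contains brain, ganglion and eye, and its arrays are shared by 7 of the comparisons in this text.

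Of the active zone proteins, unc-13 read 2210, 1942, 2364 and 2542 on the 4 brain arrays and 87.5, 94.1, 117 and 124 on the 4 whole-fly arrays. Its log2 fold of 4.31 ± 0.13 was the largest of the 9 in the brain (limma adjusted p = 1.9e-10). The probe set 1625489_at of brp read 80.4, 77.7, 79.5 and 57.4 in brain and 8.91, 5.18, 12.6 and 1.01 in whole fly, a log2 fold of 2.35 ± 0.20. A second brp probe set, 1636216_at, read 157, 128, 169 and 112 in brain and at most 2.55 in whole fly, with a log2 fold of 3.69 ± 0.13. Both brp probe sets were therefore higher on every brain array than on every whole-fly array. In the whole fly both were near the low end of the scale. The means of 1625489_at in S2 cells (82.8) and testis (79.7) were above its brain mean, as described under other observations. The remaining brp probe sets, 1629132_at and 1632538_at, had group means of at most 17.7 and 9.38 anywhere in the series and are not used further.

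On the vesicle side, Rab3 read 1573, 1474, 1452 and 1697 in brain and 68.2, 65.5, 66.1 and 112 in whole fly, a log2 fold of 4.18 ± 0.15. Syn read 1303, 1302, 1282 and 1518 in brain and 64.1, 72.7, 71.1 and 84.9 in whole fly, a log2 fold of 4.03 ± 0.10. The vesicle SNARE nSyb read 538, 498, 396 and 320 in brain and 29.4, 26.3, 19.8 and 18.6 in whole fly, a log2 fold of 3.73 ± 0.17. All 3 vesicle genes thus changed by more than 13-fold on this scale, with brain arrays varying most for nSyb. Its plasma membrane partner Snap25 read 2685, 2529, 2439 and 2939 in brain and 244, 195, 234 and 278 in whole fly, a log2 fold of 3.43 ± 0.12.

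Among the regulators and the chaperone, complexin read 2659, 2626, 2549 and 2740 on its brighter probe set in brain and 366, 342, 416 and 559 in whole fly, a log2 fold of 2.65 ± 0.14. Rop read 752, 753, 758 and 987 in brain and 130, 150, 128 and 147 in whole fly, a log2 fold of 2.46 ± 0.11. Csp had the smallest fold of the 9, 1.89 ± 0.10, from 1097 ± 64.2 in brain (SD, n = 4) to 289 ± 29.3 in whole fly.

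**Figure D2:**
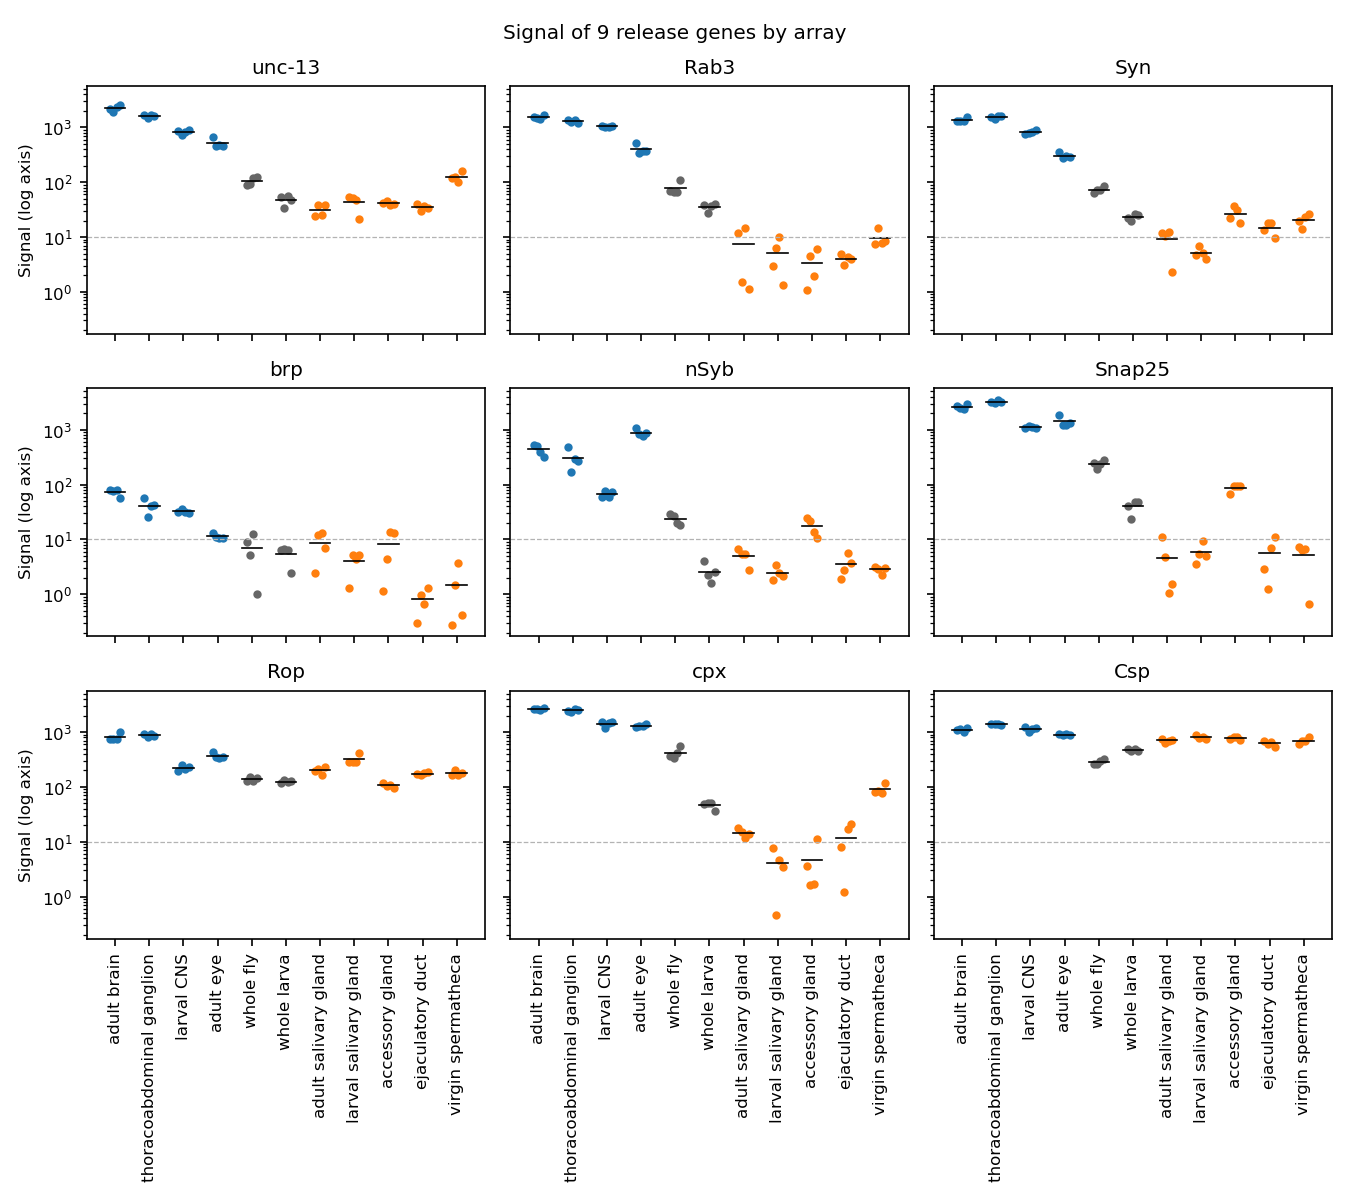
Signal of each array on a log axis for 9 release genes in 4 nervous groups (blue), 2 whole-animal groups (grey) and 5 secretory groups (orange), with the mean of 4 arrays as a bar and a dashed line at 10, the pseudocount. Rop and Csp lie above the line on every array, while Rab3, Snap25 and nSyb drop below it on most gland arrays; in the accessory gland Snap25 stays above it.

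In the thoracoabdominal ganglion, the nerve cord that serves thorax and abdomen, the tests gave the same direction for all 9 members against the whole fly, where 17.6% of probe sets were called higher and 30.3% lower; the median was 3.15 against -0.10. The highest log2 folds were those of Syn (4.23 ± 0.10), Rab3 (3.91 ± 0.16), unc-13 (3.83 ± 0.12) and Snap25 (3.74 ± 0.12). The smallest was that of brp, 1.62 ± 0.24, whose 4 ganglion arrays read 56.4, 26.1, 40.1 and 42.8. Adding 40 in place of 10 to each signal brought it to 0.79, under the 2-fold threshold, while brp 1636216_at read 85.4, 74.7, 70.9 and 104 there and was 8-fold higher than in the whole fly (adjusted p = 3.7e-09).

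Set directly against each other, brain and ganglion had 0 of the 9 members called in limma, where 2.43% of probe sets were called higher in brain and 1.58% lower. Unadjusted p was under 0.05 for 6 of the 9 and adjusted p for 5, all with folds below 2. Among these, unc-13 was 2265 ± 254 in brain and 1621 ± 85.8 in ganglion (SD, n = 4), a log2 difference of 0.47 ± 0.09, and brp 73.7 ± 11 and 41.4 ± 12.4, a difference of 0.73 ± 0.18. Rab3 differed by 0.26 ± 0.08 in the same direction. Csp and Snap25 had the opposite sign, at -0.34 ± 0.07 and -0.31 ± 0.08. The arrays of the tissues did not overlap for these 5 members and overlapped for cpx, Syn, Rop and nSyb. The share of all probe sets without overlap was not computed for this pair.

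In the adult eye 8 of the 9 members were higher than in the whole fly, where 13.7% of probe sets were called higher and 29.6% lower; the median was 1.92 against -0.21. The eye preparation expressed 6 photoreceptor markers with a summed signal of 42264 to 44139, against 2125 to 3103 in brain. Fat body markers summed to 23929 to 34314 in eye, 7269 to 8991 in brain and 13262 to 20365 in whole fly, and their part in the results was not tested.

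The leading member in the eye was nSyb, which read 1090, 825, 758 and 883, above every array of every other group; its log2 fold against whole fly was 4.75 ± 0.15 (adjusted p = 6.4e-10). Snap25 followed with 1899, 1219, 1248 and 1330, a log2 fold of 2.52 ± 0.16. Rab3, unc-13 and Syn had log2 folds of 2.25 ± 0.18, 2.19 ± 0.16 and 1.92 ± 0.12. The exception was brp 1625489_at, which read 13.2, 11, 10.4 and 10.5 in eye and overlapped the whole fly (0.38 ± 0.19, adjusted p = 0.1). The other bright brp probe set, 1636216_at, was called higher, at 2.24 ± 0.19, from 72.5, 33.4, 35 and 46.8 in eye.

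Against the brain, the eye was lower for 6 members, where 19.6% of probe sets were called higher in brain, and higher for 1, where 12.8% were called lower in brain. The median log2 fold of the members, brain minus eye, was 1.11, against 0.21 over all probe sets. Syn (2.11 ± 0.11), unc-13 (2.11 ± 0.14), brp (1.97 ± 0.11) and Rab3 (1.93 ± 0.13) were about 4-fold higher in brain, and Rop (1.11 ± 0.12) and cpx (1.01 ± 0.08) just past 2-fold. The brain and eye arrays did not overlap for any of the 9, nor for 66.2% of all probe sets. nSyb ran the other way, at 438 ± 98.8 in brain and 889 ± 143 in eye (SD, n = 4), a log2 fold of -1.02 ± 0.17 (adjusted p = 0.00042). Snap25 and Csp were not called, with 0.91 ± 0.14 and 0.27 ± 0.08, but Snap25 was called with quantile normalization (1.76, adjusted p = 1.8e-06).

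Array 1 of the eye was the highest of its group for 10 of 11 member probe sets, and its neuron markers summed to 4420, against 3054, 3068 and 3236 on the others. Without it the difference of nSyb was -0.92 and that of cpx 0.99, so neither was called, and Snap25 was called at 1.06. The nSyb call was also lost without brain array 3 (-0.98) or brain array 4 (-0.88), and that of cpx without brain array 4 (1.00).

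The 2 probe sets of cpx gave opposite answers in the eye. On 1636880_s_at the eye arrays read 1233, 1300, 1296 and 1391, below all 4 brain arrays. On 1639609_s_at they read 2217, 1718, 1696 and 1827, while brain read 525, 496, 409 and 266, a log2 fold for brain minus eye of -2.15 ± 0.20 (adjusted p = 5.1e-06). Both calls passed the test, with the groups apart on each probe set. The suffix of both names marks a probe set that matches several transcripts, which need not all be of cpx. Which transcripts each one reads is not given in the sources used here.

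Taken within an array, the log2 ratio of the first to the second cpx probe set was 2.66 ± 0.46 in brain, 3.35 ± 0.73 in ganglion, -0.50 ± 0.22 in eye and 4.67 ± 0.24 in larval CNS (SD, n = 4 each). For brain minus eye the difference was 3.16, or 8.95-fold (two-sided exact permutation p = 0.0286, the smallest that 4 against 4 arrays allow; 0.0571 after Benjamini-Hochberg adjustment over 4 such ratios). For brain minus larval CNS the difference was -2.01, the ratio being higher in the larval CNS (exact permutation p = 0.0286, adjusted 0.0571). Brain and ganglion did not separate (exact permutation p = 0.1429), nor did the ratio of the 2 bright brp probe sets between them (difference 0.04, exact permutation p = 0.8286). None of the 4 ratio differences had an adjusted p below 0.05 in the exact permutation test. Such a ratio reads how 2 probe sets change relative to each other and is not a level. With the mean of both cpx probe sets in place of the brighter one, the brain minus eye difference of cpx turned to -0.57 (adjusted p = 0.00061).

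**Figure D3:**
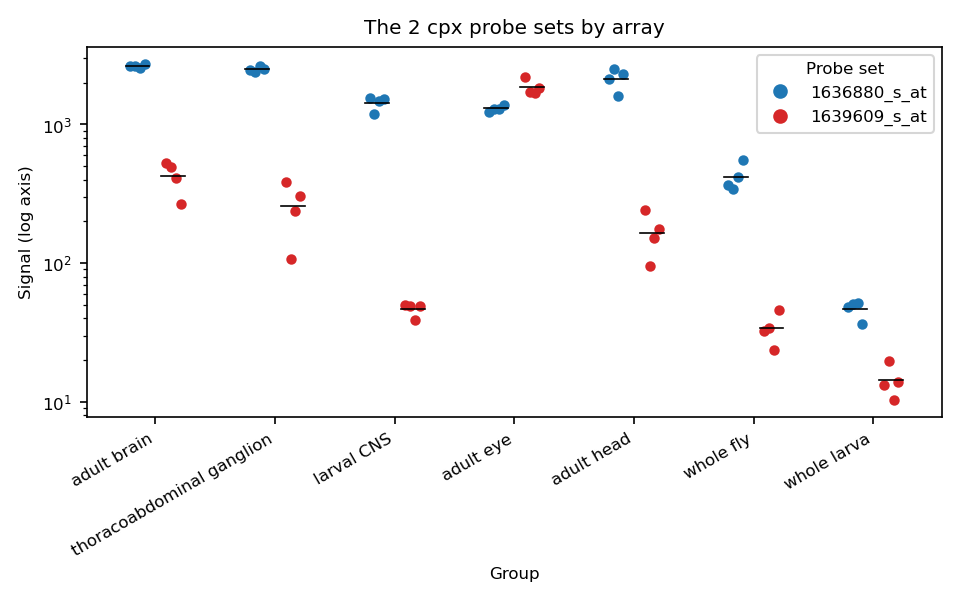
Signal of each array on a log axis for the 2 cpx probe sets, with the mean of 4 arrays as a bar, in brain, ganglion, larval CNS, eye, head and the whole animals. From brain to eye the mean of 1636880_s_at goes from 2643 to 1305 and that of 1639609_s_at from 424 to 1864; the colours are to be read across groups and not against each other.

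In the larval CNS 8 of the 9 members were higher than in the whole larva, where 27.5% of probe sets were called higher and 22.5% lower; the median was 3.86 against 0.25. The log2 folds of cpx (4.67 ± 0.12), Syn (4.63 ± 0.10), Rab3 (4.54 ± 0.10) and Snap25 (4.49 ± 0.16) led. Rab3 read 1074, 1004, 1025 and 1069 in larval CNS and 38.1, 27, 37 and 40.2 in whole larva. Complexin read 1563, 1185, 1471 and 1535 against 48.3, 50.9, 51.8 and 36.3. These arrays lay more than 20-fold apart, with little spread inside either group. Rop was the member not called: its arrays were apart, at 222 ± 23.7 and 125 ± 6.71 (SD, n = 4), but the log2 fold of 0.78 ± 0.09 stayed below 2-fold. For brp the call at 1.46 ± 0.11 was lost with 40 added to each signal (0.67) and with the mean of its 4 probe sets (0.64).

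Set against the adult brain, the larval CNS had 4 members lower, where 13.8% of probe sets were called lower, and 5 not called; the median was -0.97 against -0.01. The largest difference was in nSyb, which read 59.3, 76, 58.5 and 74.5 in larval CNS, a log2 fold of -2.52 ± 0.16 (adjusted p = 2e-07). Rop followed at -1.82 ± 0.11, from 196, 251, 212 and 228 in larval CNS. The other called members were unc-13 (-1.45 ± 0.10) and Snap25 (-1.25 ± 0.08). Each of these 4 genes had every larval array below every brain array, as did 33.1% of all probe sets.

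Members that did not reach 2-fold ranged from brp at -0.97 ± 0.10 through cpx (-0.88 ± 0.09), Syn (-0.72 ± 0.09) and Rab3 (-0.56 ± 0.07) to Csp. Csp read 1134 ± 110 in larval CNS and 1097 ± 64.2 in brain (SD, n = 4), with overlapping arrays and a difference of 0.04 ± 0.09. The second probe sets of brp and cpx were called lower in the larval CNS, at -2.01 ± 0.16 and -2.89 ± 0.19. Without larval CNS array 2 or brain array 4 the brighter brp probe set was called as well, at -1.01 and -1.08.

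Against the ganglion, the larval CNS had 3 members lower, nSyb (-1.94 ± 0.25), Rop (-1.94 ± 0.09) and Snap25 (-1.56 ± 0.07), where 12.7% of probe sets were called lower; the median was -0.92. The larval arrays are shared by both comparisons. The difference of unc-13 was -0.97 ± 0.08 and reached -1.01 without larval CNS array 4 or ganglion array 2. Neuron markers were lower in the larval CNS too, as given above, and 7 neuroblast and newborn neuron markers summed to 4017 to 4858 there, against 654 to 893 in brain. In bulk tissue, fewer neurons and less of a transcript per neuron cannot be told apart.

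**Figure D4:**
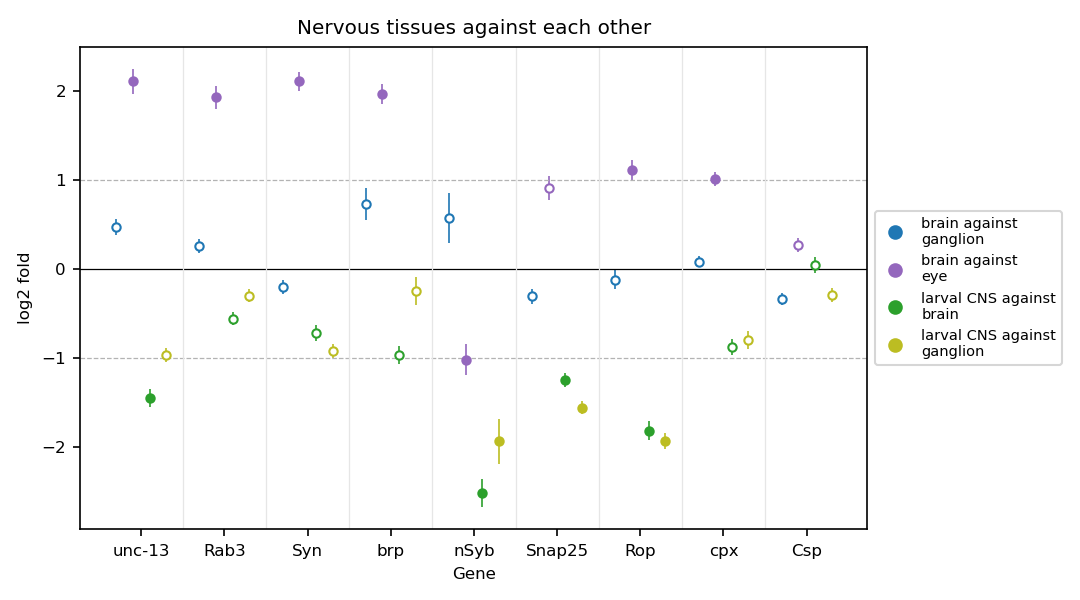
log2 fold ± SE for 9 release genes between nervous tissues (4 arrays against 4), with filled points for called differences, open points for the others and dashed lines at 2-fold. The brain against ganglion points are all open; nSyb is the gene below 0 for brain against eye, and for larval CNS against either adult tissue nSyb and Rop lie lowest.

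In the secretory tissues most members were at the low end of the scale. Csp and Rop were not, and unc-13 had gland means of 31.4 to 126. Snap25 in the accessory gland (mean 86.8) and cpx in the virgin spermatheca (mean 90.6) were also above it. The adult salivary gland had 6 members lower than the whole fly, where 28.3% of probe sets were called lower, and 1 higher, where 15.7% were called higher. Its median was -1.82 against -0.10. Snap25 read 11, 4.74, 1.07 and 1.52 there, a log2 fold of -4.12 ± 0.21, and cpx 17.9, 15.1, 11.7 and 13.7, a log2 fold of -4.11 ± 0.17. Rab3 (-2.40 ± 0.30), Syn (-2.15 ± 0.20), unc-13 (-1.49 ± 0.17) and nSyb (-1.15 ± 0.15) completed the 6. The whole fly of this comparison includes neurons. With quantile normalization nSyb (-0.65) and unc-13 (-0.92) did not reach 2-fold, and with 40 added to each signal nSyb did not (-0.49).

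Csp was the member that was higher in the adult salivary gland, at 760, 644, 701 and 723 against 267, 264, 300 and 326 in whole fly, a log2 fold of 1.26 ± 0.12 (adjusted p = 7.4e-06). Rop read 202 ± 27.3 against 139 ± 11.4 (SD, n = 4), with arrays apart and a log2 fold of 0.51 ± 0.13 that was not called. The gene brp did not pass the filter on low signal in this comparison. Neuron markers summed to 108 to 196 in the gland and glia markers to 7115 to 7951, against 996 to 1391 in whole fly, and the part of the latter in the values was not tested.

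The accessory gland, the male gland that makes seminal fluid proteins, had 5 members lower, where 29.9% of probe sets were called lower, and 1 higher, where 12% were called higher; the median was -1.16 against -0.21. Csp was higher, at 772 ± 36 (SD, n = 4) and a log2 fold of 1.39 ± 0.11. The cpx signal of 3.59, 1.64, 1.71 and 11.4 was the lowest relative to the whole fly, with a log2 fold of -4.91 ± 0.22, followed by Rab3 at -2.70 ± 0.18. Snap25 read 67, 92.8, 94.7 and 92.5 here, whereas its means in the other 4 glands lay between 4.59 and 5.81; this difference between glands was not tested. It was lower than in the whole fly by a log2 fold of -1.36 ± 0.14. Of 11 neuron markers 9 lay below 10 in this gland, elav read 26 and Rbp9 read 196. Muscle markers summed to 2094 to 2693, and their part in the values was not tested. The calls of unc-13 (-1.16 ± 0.13) and Syn (-1.20 ± 0.17) were lost with quantile normalization (-0.42 and -0.21) and with 40 added to each signal (-0.83 and -0.77).

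The ejaculatory duct had 6 members lower, where 28.8% of probe sets were called lower, and Csp higher, where 10.2% were called higher; the median was -1.55 against -0.24. Complexin (-4.38 ± 0.29) and Snap25 (-4.03 ± 0.20) were lowest, and Csp read 690, 619, 648 and 542, a log2 fold of 1.09 ± 0.13 that came to 0.99 with quantile normalization. Under that normalization nSyb (-0.59), unc-13 (-0.66) and Syn (-0.84) were also short of 2-fold, as were nSyb (-0.54) and unc-13 (-0.94) with 40 added to each signal. Accessory gland markers summed to 19470 to 24918 in the duct, so the duct arrays held their transcripts too.

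In the virgin spermatheca, the sperm store of the female with its secretory cells, 5 members were lower, where 33% of probe sets were called lower, and Csp was higher, where 11.1% were called higher. The median was -1.41 against -0.34. Snap25 (-4.04 ± 0.17), Rab3 (-2.15 ± 0.17), cpx (-2.09 ± 0.17), Syn (-1.44 ± 0.14) and nSyb (-1.37 ± 0.12) were the 5. The cpx arrays read 81.7, 83.5, 79 and 118, while the means of the other 4 glands lay between 4.1 and 14.6. The unc-13 arrays read 117, 126, 102 and 159 and overlapped the whole fly (0.23 ± 0.15, adjusted p = 0.18). Fat body markers summed to 21096 to 24854 in this tissue, and their part in the values was not tested. With quantile normalization unc-13 was called higher at 1.01, and Syn (-0.32) and nSyb (-0.66) were not called. Those 2 calls were also lost with 40 added to each signal (-0.90 and -0.56), and that of cpx with the mean of its 2 probe sets (-0.93).

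The larval salivary gland, which makes the glue proteins, had 4 members lower than the whole larva, where 23.6% of probe sets were called lower, and 1 higher, where 13% were called higher; the median was -1.14 against 0.13. Rop was the member that was higher: it read 280, 291, 289 and 425 against 117, 133, 121 and 127, a log2 fold of 1.28 ± 0.14 (adjusted p = 1e-05). Csp was 811 ± 50.6 against 473 ± 27.3 (SD, n = 4), a log2 fold of 0.77 ± 0.09 that was not called. The lower genes were cpx (-2.03 ± 0.16), Snap25 (-1.66 ± 0.19), Rab3 (-1.61 ± 0.18) and Syn (-1.14 ± 0.11), with means of 4.1 to 5.81 in the gland and 23.5 to 46.8 in the larva. None of these 4 stayed past 2-fold with 40 added to each signal, where they ran from -0.98 to -0.49. The whole larva contains the gland, and its glue gene markers summed to 23419 to 25314 there against 66191 to 89990 in the gland.

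Between the larval and the adult salivary gland, 0 of the 4 members tested were called in limma, where 9.14% of probe sets were called higher in the larva and 12.8% lower. Unadjusted and adjusted p were both under 0.05 for cpx (log2 fold -0.82 ± 0.17) and Rop, whose folds stayed below 2. Rop read 321 ± 69.6 in larva and 202 ± 27.3 in adult (SD, n = 4), a log2 fold of 0.63 ± 0.17. The other 5 members did not pass the filter on low signal in these glands.

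**Figure D5:**
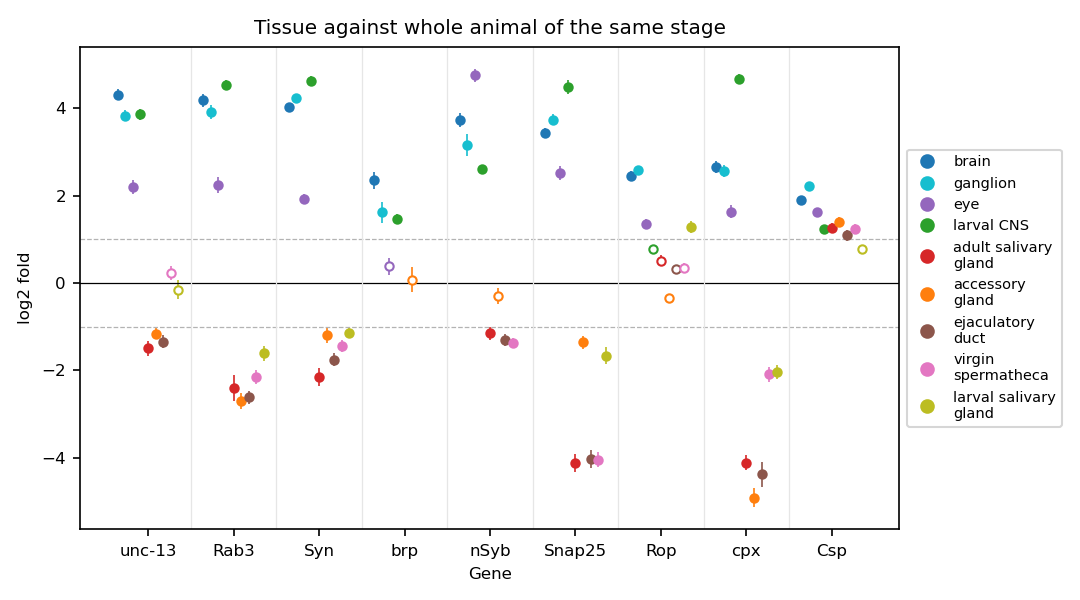
log2 fold ± SE against the whole animal of the same stage (4 arrays against 4) for 9 release genes in 4 nervous and 5 secretory groups, with filled points for called differences, open points for the others and dashed lines at 2-fold; genes that did not pass the low-signal filter have no point. Nervous tissues lie above 0 for every gene, and the glands below 0 or near it except for Csp and Rop.

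Across the 27 groups without a nervous or whole-animal label, Csp had a mean signal of at least 100 in 27 and Rop in 25. The lowest Csp mean was 102, in testis, and the lowest Rop mean was 76.2, in larval fat body. unc-13 lay at or above 10 in all 27 and reached 100 in 9. The mean of brp 1625489_at lay below 10 in 23 groups, that of nSyb in 21, Rab3 in 19, Syn in 18, Snap25 in 17 and cpx in 12. In order of level, Snap25 was highest in ganglion, with every ganglion array above every brain array, then brain, eye and head, and the arrays of eye, head and larval CNS overlapped in steps. unc-13 was highest in brain, then ganglion, larval CNS and eye, each of the first 3 apart from the next.

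For Csp, after the ganglion (1386), the arrays of larval CNS (mean 1134), brain (1097), mated spermatheca (993), larval midgut (926) and eye (905) overlapped in steps. For Rop, ganglion (880) and brain (812) overlapped and stood above wandering larval tubule (401), S2 cells (383) and eye (371), which overlapped in turn.

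The adult trachea and the wings had the highest means of the 27 groups for Snap25, unc-13, cpx, Syn, Rab3 and nSyb. The trachea arrays scattered widely: Snap25 read 1078, 266, 1159 and 19.1, and Syn 425, 104, 503 and 13.4. Neuron markers summed to 3252, 980, 3612 and 213 on the same 4 arrays, in the same order as Snap25 and Syn. The wing arrays were close together, with Snap25 at 320, 265, 273 and 296 and neuron markers at 1407, 1020, 1297 and 1231.

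The means of the members were correlated across the 34 groups on the log2 scale. Syn and Rab3 had a Pearson r of 0.98, Snap25 reached 0.96 with each of them, and cpx 0.94. Among Snap25, nSyb, unc-13, cpx, Syn and Rab3 the lowest r was 0.81. Rop and Csp correlated at 0.64 with each other and at 0.32 to 0.57 with those 6, and brp 1625489_at at 0.37 to 0.51. The other bright brp probe set, 1636216_at, correlated with the same 6 genes at 0.75 to 0.85. These values describe 34 group means that share the arrays and their scaling.

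Over 9840 genes searched, the ones whose pattern was most like the mean of the members were ChAT, which makes acetylcholine (r = 0.985), igl, a calmodulin-binding neuronal protein (0.985), CG3257 (0.984), CG12605 (0.982) and Pdzd8 (0.979). Single members had other nearest genes: Appl, the fly amyloid precursor-like protein, for Rab3 (0.989), eys, a secreted protein of the photoreceptor lumen, for nSyb (0.954), Ten-a, a teneurin, for unc-13 (0.914) and dpr17 for brp (0.890). For Rop the nearest were gammaSnap1, of the SNARE disassembly machinery (0.871), and Synj, the synaptojanin of vesicle recycling (0.837). For Csp it was Tnks, tankyrase (0.833).

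Other genes of release were read from 7 lists, whose counts stand beside 19.3% of all probe sets called higher in brain and 15.7% in the adult salivary gland. The same share was 17.6% in ganglion, 13.7% in eye, 27.5% in larval CNS and 13% in the larval salivary gland. For brain against eye 19.6% were called higher, and for larval CNS against brain 13.8% were called lower. Of 15 measured genes of the active zone and priming, 12 were higher in brain than in whole fly, with a list median of 3.70. The calcium channel subunit cac (1028 against 19, log2 fold 5.16), its partner stj (4.77), the exchange factor Rab3-GEF (4.58) and the scaffold Rim (4.39) led, stac was lower (-1.17), and Liprin-alpha (-0.25) and Liprin-beta (-0.83) were not called. The gene cac is also among the neuron markers. Counts of higher genes were 12 in ganglion, 10 in eye and 12 in larval CNS. Between larval CNS and brain 10 of the 15 were lower, Ca-beta (-2.44), Rab3-GEF (-2.07), nwk (-2.05) and stj (-1.87) most. Fife, an active zone protein, read 548 in brain and 16.1 in eye, a log2 fold of 4.42, the highest of the 12 that were higher in brain than in eye.

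Of 8 measured synaptotagmins and calcium sensors 7 were higher in brain than in whole fly (median 3.68), with Syt7 (1636 against 52.1, 4.73), Rph (4.10), Syt12 (3.93) and Cadps (3.84) first and Sytbeta (0.34) not called. In eye 3 of the 6 tested were higher. Syt12 read 239 in brain and 7.15 in eye, and Sytalpha 241 and 13.6.

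Of 14 recycling genes 8 were higher in brain (57.1%, median 1.26). EndoA, endophilin (4.54), lap, the AP180 clathrin adaptor (4.38), and shi, dynamin (3.57), led; Chc (0.60) and Clc (0.30), the clathrin chains, were not called, and Dap160 was lower (-1.11). In the adult salivary gland Clc (2037 against 624, 1.69) and aux (1.04) were higher, 14.3% of the list. Of 7 genes of SNARE disassembly and the Sec1/Munc18 family, 5 were higher in brain (median 1.62), led by alphaSnap (3.45), gammaSnap2 (3.22) and gammaSnap1 (3.06). Slh, the Sly1 homolog that acts in transport from the endoplasmic reticulum, was not called in brain (-0.27). It was higher in the adult salivary gland (1088 against 172, 2.59), accessory gland (2.12), duct (2.13) and larval salivary gland (2.22). In the virgin spermatheca it was not called (0.98).

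Of 11 measured SNAREs of other membranes, 3 were higher in brain (27.3%, median 0.02), 7 in the adult salivary gland (63.6%, median 1.17) and 6 in the larval salivary gland (median 1.24). In the accessory gland and in the duct 4 were higher (36.4%) and 1 lower. Of all probe sets, 12% and 10.2% were called higher there and 29.9% and 28.8% lower. In the virgin spermatheca 2 were higher (18.2%) and 3 lower (median 0.08), beside 11.1% higher and 33% lower over all probe sets. In the adult salivary gland Sec22 (2006 against 330, 2.56), Membrin (2.23), Ykt6 (1.80) and Syb, the non-neuronal synaptobrevin (1849 against 545, 1.74), were the highest, and Snap24 (-0.85) and Snap29 (-0.25) were not called. Syb was lower in brain (161, -1.70), in the opposite direction to nSyb, and higher in larval CNS than in brain (565, 1.75).

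Of 7 exocyst subunits 0 were called in brain in limma. Unadjusted and adjusted p were both under 0.05 for 5 of them, with folds below 2. In the adult salivary gland 2 (28.6%) were higher, Sec3 (1.54) and Sec5 (1.11). Of 16 genes of other Rab steps 6 were higher in brain (37.5%), led by RabX4 (3.03), Rab26 (2.89), Rab35 (2.84) and Rab27 (2.34), and Rab23 was lower (-3.07). Rab27 read 273 in brain and 14.1 in eye, a log2 fold of 3.58.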

How the data were processed

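The deposited values are intensities, 1 signal per probe set and array on a linear scale; the authors' scanning and summary software and genome build are not given in the sources used here. Trimmed means (2% off each end) of the 136 arrays lay between 100.002 and 100.0065, so the deposited arrays already shared a common scale. Here 183 control probe sets were left out, 18769 were analysed, and each array was multiplied by 1 factor to a trimmed mean of 100.004. Symbols came from the array's annotation, 13544 of them joined through a gene table: 13647 probe sets had 1 symbol, 402 had several and 4720 were not listed. The members and lists were chosen with earlier results of these data known.

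Tests were run per comparison on log2(signal + 10), 4 arrays against 4, by lmFit and eBayes of limma 3.58.1 (R 4.3.3). Probe sets whose group mean was under the 40th percentile in both groups were left out, and p-values were adjusted by Benjamini-Hochberg over the rest. Calls needed an adjusted p below 0.05 and a 2-fold change. The script was tested on simulated data. Named genes are all members, up to 4 genes per list with the largest called change each way and up to 3 that were not called, and up to 5 genes of highest Pearson r; the text gives a part of these. Probe-set ratios were compared with exact permutation tests in scipy 1.17.1. The labels do not say whether arrays that share a replicate number are paired. Every pair of residuals correlated above 0.1 in 0 of 14 comparisons (range -0.096 to 0.166). Residuals of different tissues cannot settle pairing, and the main fits used none. Arrays have no read depth, and 4 per group limit the precision.

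Besides the neuron, photoreceptor, neuroblast, fat body, accessory gland, larval salivary and spermatheca markers given in the text, glia markers summed to 4288 to 8272 in the nervous tissues and the eye, 3 adult salivary markers to 30285 to 40510 in that gland and 34.5 to 619 in ganglion, 4 duct markers to 19103 to 26749 in the duct, 5 muscle markers to 74.5 to 573 in the nervous tissues and the eye, and 6 hemocyte markers to 200 to 1334 there. Their part in the results was not tested. Results were recomputed from unscaled deposited values, after quantile normalization, with a pseudocount of 2 or 40, without a filter or with one at the 60th percentile, with a replicate block, in a joint fit of the 34 groups, over the mean of a gene's probe sets, and leaving out each array.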

Additional observations from a re-analysis of the deposited data

Results flagged for a closer look

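Of 88 sets of 4 arrays of a member with a mean signal of at least 30, 13 had an array farther from its neighbours than Dixon's limit for 4 samples. Chance flags about 1 in 20 sets, and arrays are shared between genes, so the flags are not independent.

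In the eye, array 1 stood above the others for Snap25 (1899), unc-13 (681) and Rab3 (521). In the brain, array 4 stood above the others for Syn (1518) and Rop (987) and below them for brp (57.4). Rab3 had 1 high whole-fly array (112), and the second cpx probe set had 1 low larval CNS array (39). Among the glands, Rop had 1 high array in the larval salivary gland (425), cpx 1 high array in virgin spermatheca (118) and Snap25 1 low array in accessory gland (67). In the mated spermatheca, unc-13 (78.7) and Rop (167) each had 1 low array. The causes were not tested.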

How the results depend on the processing

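The 116 member folds kept their call with the values as deposited, no filter, 1 fit of all groups and the replicate block. These settings leave a fold the same, or nearly so, by construction. Its direction could therefore not turn, and mainly the SE and p-value could move. The labels do not say that the numbers pair the arrays, so the block is only a check. The count in brain against whole fly stayed at 9 with it. The 60th percentile filter left 106 folds, all with the same call. Quantile normalization ended 11 calls and made 2, and it turned the sign of 4 folds that were not called; a pseudocount of 40 ended 15 and a pseudocount of 2 made 2. The mean of all probe sets, which gave 110 folds, ended 2 calls and made 3, and with it cpx in brain against eye was reversed (-0.57), the only called fold to do so under these alternatives.

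Members lower went from 5 to 3 in accessory gland with quantile normalization or a pseudocount of 40. In the duct with quantile normalization they went from 6 to 3, and members higher from 1 to 0. In virgin spermatheca lower went from 5 to 3 with quantile normalization, a pseudocount of 40 or the mean of all probe sets, and higher from 1 to 2 with the first. In larval salivary gland lower went from 4 to 0 with a pseudocount of 40 and to 2 with the stricter filter, which tests fewer genes. In brain against eye lower went from 1 to 0 with a pseudocount of 40, and in larval against adult salivary gland from 0 to 1 with a pseudocount of 2 (cpx, -1.60). Causes were not tested.

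Leaving out 1 array gave 926 folds, of which 916 kept their call, 5 lost it and 5 gained it, named in the report, and 2 that were not called changed sign. Counts ran from 5 to 6 higher and 0 to 1 lower in brain against eye, from 4 to 5 lower in larval CNS against brain and from 3 to 4 against ganglion, and did not move elsewhere. The cpx ratio difference ran from 2.94 to 3.27 for brain and eye, from -2.23 to -1.90 for brain and larval CNS and from -0.93 to -0.37 for brain and ganglion, and that of brp from -0.07 to 0.16. Quantile normalization moved the share of higher calls from 36.7% to 50.4% in ganglion, 31.6% to 50.6% in eye, 35.8% to 53.4% in adult salivary gland, 28.7% to 51.2% in accessory gland, 26.1% to 51.4% in duct, 35.5% to 54.4% in larval salivary gland and 41.7% to 51.9% in larval against adult salivary gland. Genes near the pseudocount have no order and compressed folds.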

Other observations

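S2 cells and testis had the highest means on brp 1625489_at, with arrays that overlapped those of the brain. S2 cells read 90.7, 83.7, 74 and 82.6 and testis 83.7, 81.7, 66.5 and 87, while brain read 57.4 to 80.4. On brp 1636216_at the same groups had means of 1.86 and 3.97, against 141 in brain, and on 1629132_at 7.13 and 1. The probe sets of brp thus disagree in these groups, and which transcripts each one reads is not given in the files.

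Within the ganglion, nSyb read 476, 173, 295 and 269 and the second cpx probe set read 386, 107, 236 and 307, with array 1 highest and array 2 lowest for each, as for brp 1625489_at (56.4, 26.1, 40.1 and 42.8). In the brain array 4 was lowest for the same probe sets, at 320, 266 and 57.4. On these arrays Syn, Rab3, Snap25 and the brighter cpx probe set varied much less, Syn from 1435 to 1625 in ganglion. The cause was not tested.

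Thoracic muscle had 1 array with high values for several members. Snap25 read 77.2, 50.1, 498 and 7.56 there, Rab3 11.4, 11.5, 102 and 0.375, and cpx 45.2, 24.6, 283 and 19.1, all highest on array 3.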
